A study of Mus musculus with 16 samples.

Results

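The immediate early response genes described here are Fos, Fosb, Jun, Junb, Jund, Egr1, Ier2, Atf3, Klf6 and Myc, 10 of the 53379 genes in the deposited table, chosen by name and found through their GENCODE gene identifiers. RNA was measured in male mouse embryonic stem cells (mESC) after immunoprecipitation (IP) of Sox2, a DNA-binding pluripotency factor, and in the matching input lysates. Cells were crosslinked with formaldehyde (fRIP) or with UV light (UV-RIP), and each crosslinker had 4 IP and 4 input libraries, numbered replicates 3 to 6. The 4 groups are fRIP IP, fRIP input, UV-RIP IP and UV-RIP input, and the labels name no allele for the cells. All cells grew on gelatin with 12.6% FBS, 1000 U/mL LIF, 1 uM PD0325901 and 3 uM CHIR99021. PD0325901 inhibits MEK, a kinase of the ERK pathway, and CHIR99021 inhibits the kinase GSK3. The 8 plates were separate cultures, an IP and an input of one number came from one lysate, and the only background measured was the input, since the series has no IP with an unrelated antibody. The formaldehyde plates were fixed at room temperature and the UV plates were irradiated under cold PBS, so crosslinker, handling and plate cannot be told apart.

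Immediate early genes are transcribed within minutes of a growth factor, serum or stress signal from factors that are already present in the cell, without new protein synthesis. The ERK kinases act on ternary complex factors bound with SRF at their promoters, and CREB family factors act at cyclic AMP response elements. Their transcripts are mostly short and decay fast, in part through AU-rich elements in the 3′ UTR that are recognised by decay factors such as Zfp36. Most of their products are transcription factors, among them the Fos and Jun proteins that pair to form AP-1.

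The sequence features below are shown because they are the textbook control elements of this gene class and because they come from the annotation and not from the counts. In the RefSeq promoters of GRCm38.p6, 7 of the 10 genes had an entry, all but Egr1, Ier2 and Myc. The 250 bases before the start site were searched on both strands. The core of the cyclic AMP response element, TGACG, was found in 4 of the 7 promoters, against 17.8% of all 32851 promoters. One match is printed for each of the 4 genes, 5′ to 3′ on the strand of the gene, with the motif in capitals, and in Atf3 the capitals are its reverse complement. The Atf3 window lies at chr1:191183334-191183350 on the minus strand, that of Fosb at chr7:19310091-19310115 on the minus strand, that of Junb at chr8:84978840-84978864 on the minus strand and that of Fos at chr12:85473814-85473838 on the plus strand.
Fos promoter: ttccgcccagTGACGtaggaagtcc
Fosb promoter: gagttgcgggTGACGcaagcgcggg
Junb promoter: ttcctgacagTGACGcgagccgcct
Atf3 promoter: aatagcattaCGTCAgc
The GC box GGGCGG was found in 5 of the 7 promoters, against 32.7% of all promoters, and shared no base with a TGACG match. TATAAA was found in 1 of the 7, Fos, against 12.4%, and the SRF-binding CArG box in none of the 7, against 1.47%. Elements farther upstream than 250 bases, and the promoters of Egr1, Ier2 and Myc, were outside the search. The result therefore does not show that these genes, Fos included, lack a CArG box.

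The AU-rich pentamer ATTTA was present in the 3′ UTR of 9 of the 10 genes, against 68.3% of 19934 genes with a 3′ UTR of 100 bases or more. The longer TATTTAT, which contains the pentamer, was present in 6 of the 10, against 29.0%. The search used the transcript strand of the longest coding 3′ UTR of each gene in GENCODE vM21, and these differ in length between genes. Fos had the highest density, 4.91 ATTTA per kb, followed by Myc with 4.29, Junb with 4.12 and Jun with 3.24, and the median over all genes was 1.35. Ier2 was the gene without a match. One TATTTAT of each of the 6 genes is printed, with the motif in capitals, on the strand of the gene in GRCm38. The windows are chr12:85477104-85477130 plus for Fos, chr7:19303327-19303353 minus for Fosb, chr4:95049080-95049106 minus for Jun, chr8:70700360-70700386 plus for Jund, chr1:191170339-191170365 minus for Atf3 and chr13:5868491-5868517 plus for Klf6.
Fos 3′ UTR: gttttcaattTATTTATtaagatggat
Fosb 3′ UTR: cacccccagcTATTTATccctttcctg
Jun 3′ UTR: tgcttgtgcaTATTTATaatagcgttc
Jund 3′ UTR: gattccgcccTATTTATgtttctactc
Atf3 3′ UTR: aaatattactTATTTATcccagtattc
Klf6 3′ UTR: ctacgtctctTATTTATgccttgagga

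The values are unique molecular identifiers (UMIs), which count an original RNA fragment once, on whole gene bodies with introns. Totals ran from 12456298 to 21211537 UMIs per library, and counts scaled to 1000000 UMIs of the library are given as CPM. Gm26917, a ribosomal-RNA-like locus, held 18.4% to 22.3% of the UMIs in the UV-RIP IP, 12.03% to 12.3% in its input and 5.44% to 12.4% in the fRIP libraries. The summed level of 10 embryonic stem cell markers was 2301 to 4949 CPM in every library, with Sox2 itself listed at 0 UMIs in all 16. Sox2 lies within the gene Sox2ot, and how reads on overlapping genes were counted is not given in the sources used here, so this 0 does not show that Sox2 RNA was absent. Markers of other cells were low, with 1.56 to 3.30 CPM summed over 6 fibroblast genes, 4.48 to 8.80 over 4 endoderm genes, 2.11 to 6.30 over 3 mesoderm genes and 1.12 to 3.71 over 3 neural genes, of which Sox1 and Neurod1 were at 0.

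The members spanned a wide range of levels. Per kb of gene body in the fRIP input, Ier2 had 21.04 ± 3.35 CPM per kb (SD, n = 4) and Jund 19.1 ± 7.65, which did not differ beyond their spread. Klf6 had 2.43 ± 0.148, Junb 1.49 ± 0.120, Myc 1.30 ± 0.217 and Jun 1.27 ± 0.234 CPM per kb, of which Junb, Myc and Jun lay within each other's spread. Fos had 0.328 ± 0.122 CPM per kb, and Egr1, Atf3 and Fosb had 0.0878, 0.0827 and 0.0523. The Atf3 value is divided by a gene body of 47744 bases, of which 4.51% are exonic. Not divided by length, Atf3 had a mean of 3.95 CPM in the fRIP input, against 1.11 for Fos and 0.453 for Egr1. The classical markers of the response, Fos and Egr1, were thus among the low members, with at most 24 and 10 UMIs in any library. All 10 genes reached 3 UMIs in at least 1 library, the limit for testing. In the plot of CPM by library the 4 groups of each gene stand side by side.

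**Figure D1:**
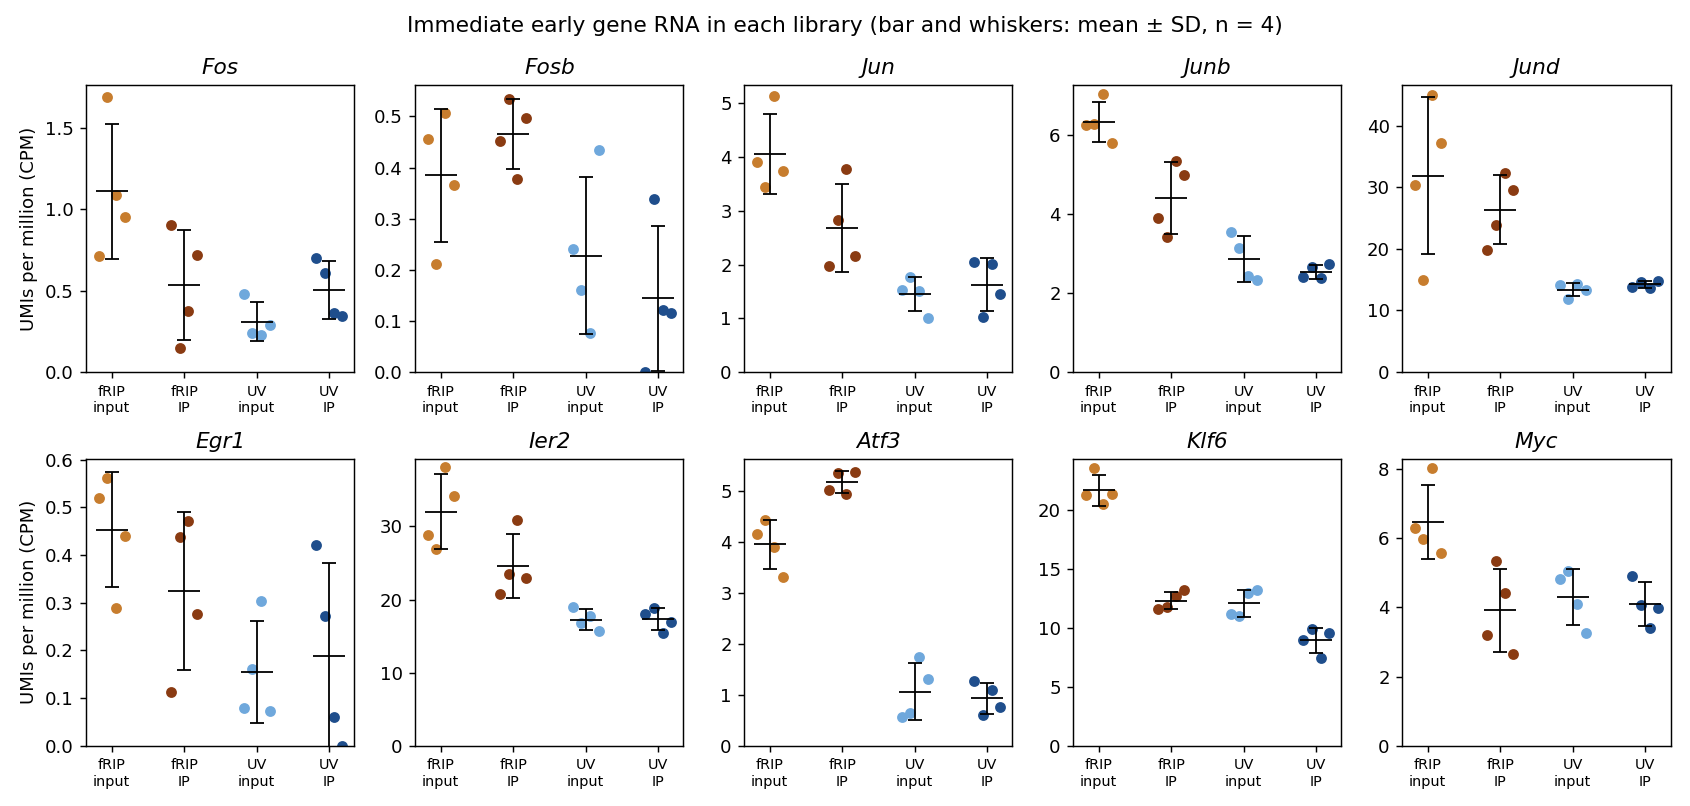
UMIs per 1000000 UMIs of the library (CPM) of each immediate early gene in the 16 libraries, 1 panel per gene, with the 4 libraries of each group as points and a bar and whiskers for mean ± SD (n = 4). The fRIP inputs lie above the UV-RIP inputs without overlap for 8 genes, all but Fosb and Egr1, as they do for 19.04% of all genes tested and 51.1% of protein-coding genes under 10 kb. The UV-RIP IP and input overlap for every gene but Klf6.

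The inputs were compared first, because they hold the RNA of the lysate before the Sox2 IP. By the study's methods this lysate was sonicated, cleared by centrifugation and precleared with beads. All 10 genes had a higher fitted level in the fRIP input than in the UV-RIP input, and 9 of them, all but Fosb, passed the test (quasi-likelihood test in edgeR, p adjusted by Benjamini-Hochberg over all genes tested, threshold 0.05). Over the 22936 genes tested, 20.2% were called higher in the fRIP input and 17% lower, and no immediate early gene was called lower. The median log2 difference of the 10 genes was 1.20, against 0.03 for all genes tested. The summed level of the 10 genes was 87.9 to 130 CPM in the fRIP inputs and 50.8 to 55.4 CPM in the UV-RIP inputs. In such bulk lysates more cells with a transcript, more RNA per cell and a different recovery of RNA after each crosslinker cannot be told apart.

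Among the Fos proteins, which need a Jun partner to bind DNA, Fos (chromosome 12, 85473890 to 85477273, plus strand) had 11, 24, 15 and 13 UMIs in fRIP input replicates 3, 4, 5 and 6 and 6, 3, 3 and 4 in the UV-RIP inputs. In CPM every fRIP input lay above every UV-RIP input, and the difference was 3.52-fold (log2 1.81, SE 0.39, adjusted p = 0.00156). Fosb (chromosome 7, 19302696 to 19310051, minus strand) had 7, 3, 7 and 5 UMIs in the fRIP inputs and 3, 2, 1 and 6 in the UV-RIP inputs. Its groups overlapped, and a log2 difference of 0.72 (SE 0.53, adjusted p = 0.318) did not pass at this depth. Atf3 (chromosome 1, 191170296 to 191218039, minus strand), a stress-induced factor that pairs with Jun proteins, had 64, 63, 54 and 45 UMIs in the fRIP inputs and 7, 8, 23 and 18 in the UV-RIP inputs. This was the largest difference of the 10, 3.66-fold (log2 1.87, SE 0.26, adjusted p = 3.62e-05), and the groups did not overlap in CPM.

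The Jun proteins pair with Fos proteins or with each other. Jun (chromosome 4, 95049034 to 95052222, minus strand) had 3.90, 3.44, 5.14 and 3.74 CPM in the fRIP inputs and 1.53, 1.76, 1.51 and 1.01 CPM in the UV-RIP inputs, a 2.79-fold difference (log2 1.48, SE 0.21, adjusted p = 3.17e-05). Junb (chromosome 8, 84974484 to 84978718, minus strand) had 6.24, 6.26, 7.02 and 5.80 CPM against 3.53, 3.12, 2.42 and 2.31 CPM (log2 1.16, SE 0.16, adjusted p = 2.73e-05). Both genes were higher in each fRIP input than in any UV-RIP input. Jund (chromosome 8, 70698949 to 70700616, plus strand), the Jun gene least dependent on stimulation, had 30.4, 14.9, 44.9 and 37.1 CPM against 14.05, 11.9, 14.3 and 13.2 CPM (log2 1.25, SE 0.23, adjusted p = 0.000344). Its fRIP input of replicate 4 was below the other 3 fRIP inputs and just above the highest UV-RIP input.

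Of the zinc finger factors, Egr1 (chromosome 18, 34859823 to 34864984, plus strand), a direct target of ERK signalling, had 8, 8, 4 and 6 UMIs in the fRIP inputs and 1, 2, 4 and 1 in the UV-RIP inputs. The groups overlapped in CPM through replicate 5 of each crosslinker, and the log2 difference of 1.51 (SE 0.53, adjusted p = 0.0341) rested on these few UMIs. It no longer passed without replicate 3 (adjusted p = 0.162), 4 (0.0910) or 6 (0.141), each left out of both inputs. Klf6 (chromosome 13, 5861482 to 5870394, plus strand), a Krüppel-like factor, had 21.3, 23.6, 20.5 and 21.4 CPM in the fRIP inputs and 11.2, 11.05, 12.9 and 13.2 CPM in the UV-RIP inputs. Its groups were widely separated, at 1.79-fold (log2 0.84, SE 0.10, adjusted p = 6.57e-06).

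Myc (chromosome 15, 61985391 to 61990374, plus strand), which drives growth and ribosome production, had 6.31, 5.98, 8.03 and 5.58 CPM in the fRIP inputs and 4.82, 5.04, 4.09 and 3.25 CPM in the UV-RIP inputs. This was the smallest difference among the called genes, 1.51-fold (log2 0.59, SE 0.16, adjusted p = 0.00866), and without replicate 5 it was 0.45 on the log2 scale and not called (adjusted p = 0.0952). Ier2 (chromosome 8, 84661331 to 84662852, minus strand), which encodes a small nuclear protein, had 28.9, 26.9, 38.1 and 34.2 CPM against 18.9, 16.7, 17.7 and 15.7 CPM. Every fRIP input exceeded every UV-RIP input, at 1.85-fold (log2 0.89, SE 0.11, adjusted p = 1.30e-05).

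The embryonic stem cell markers moved the same way between the inputs. Of 9 tested, 7 (77.8%) were higher in the fRIP input and none lower, against 20.2% and 17% of all genes, with a median log2 difference of 0.97, and their part in the result for the immediate early genes was not tested. Of the other cells' markers tested, 1 of 3 fibroblast, 1 of 4 endoderm and 1 of 3 mesoderm genes were higher, and the 1 neural gene tested was lower, all at the low levels given above.

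**Figure D2:**
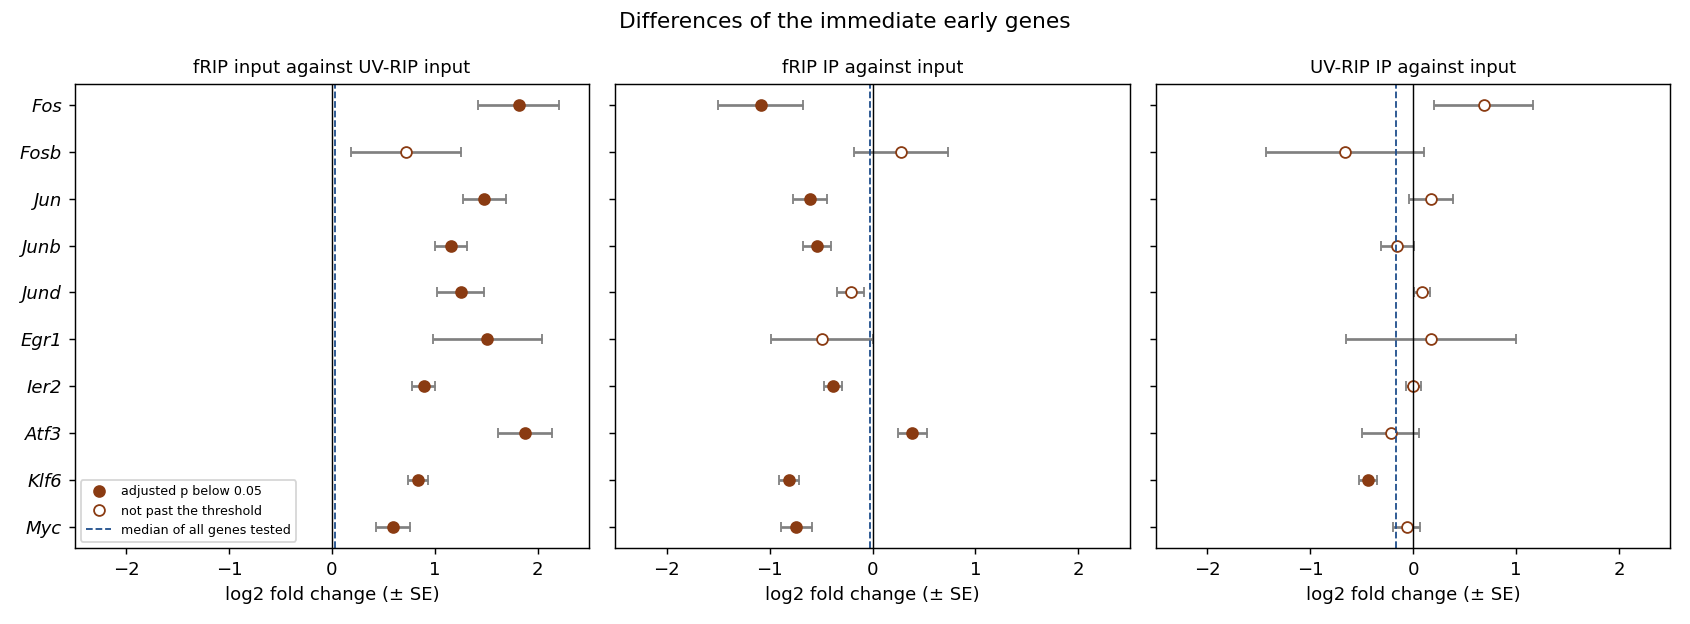
Log2 fold change (± SE) of the 10 genes between the inputs and between IP and input in each crosslinker, with filled points for an adjusted p below 0.05 and a dashed line at the median of all 22936 genes. Between the inputs 9 genes are called higher, in fRIP 6 are called lower and Atf3 higher in the IP, and in UV-RIP only Klf6 is called.

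In fRIP, 6 of the 10 genes were lower in the Sox2 IP than in its input: Fos, Jun, Junb, Ier2, Klf6 and Myc. Over all genes tested 21.9% were called lower and 17.6% higher. Atf3 was the 1 gene called higher, and Fosb, Jund and Egr1 did not pass the test. With a fold above 1.5 as well, 4 genes remained lower, Fos, Jun, Klf6 and Myc, against 10.7% of all genes, and none higher, against 8.80%. The median log2 fold change was -0.51 for the 10 genes and -0.03 for all genes. In CPM 3 genes, Junb, Klf6 and Myc, had every IP below every input. The share was 19.2% of all genes tested and 52.2% of protein-coding genes under 10 kb. Only Atf3 had every IP above every input, against 15.3% of all genes tested. The fRIP inputs enter this comparison and the one between inputs, so the 2 sets of values are not independent.

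Klf6 had the clearest depletion, with 11.6, 11.8, 12.7 and 13.2 CPM in the fRIP IP of replicates 3 to 6. All 4 lay below every fRIP input, and the gene was 1.76-fold lower (log2 -0.81, SE 0.10, adjusted p = 2.85e-07). Myc had 3.22, 5.35, 4.43 and 2.66 CPM in the IP, all below its inputs, with a log2 fold change of -0.74 (SE 0.15, adjusted p = 0.000271). Ier2 had 20.8, 23.5, 30.9 and 23.0 CPM in the IP. The groups overlapped for Ier2, since IP replicate 5 exceeded 2 inputs, but each IP was below the input of its own lysate, and the log2 fold change was -0.39 (SE 0.09, adjusted p = 0.00116).

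For the Jun genes, Jun had 1.97, 2.82, 3.77 and 2.16 CPM in the fRIP IP and Junb 3.89, 3.40, 5.33 and 4.98 CPM. Both were below the input in 4 of 4 lysates, without overlap of the groups for Junb and with overlap for Jun. The log2 fold change was -0.61 for Jun (SE 0.16, adjusted p = 0.00416) and -0.54 for Junb (SE 0.14, adjusted p = 0.00267). In DESeq2 Jun was not called under either scaling (adjusted p = 0.0542 with total UMIs and 0.0736 with median-of-ratios), and Junb was not called with median-of-ratios (0.0561). Jund had 19.7, 23.8, 32.3 and 29.5 CPM in the IP and was below its input in replicates 3, 5 and 6 but above it in replicate 4, whose input was the low one. Over the 4 lysates its log2 fold change was -0.21 (SE 0.13, adjusted p = 0.232), and without replicate 4 it was -0.47 (SE 0.07, adjusted p = 6.81e-10).

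Atf3 had 89, 110, 105 and 97 UMIs in the fRIP IP, or 5.02, 5.35, 4.95 and 5.37 CPM, above all inputs. The log2 fold change was 0.39 (SE 0.14, adjusted p = 0.0295), a 1.31-fold rise that was no longer called without replicate 3 (adjusted p = 0.0618), 5 (0.0740) or 6 (0.217), nor in DESeq2 with total UMIs (0.171) or median-of-ratios (0.146). Fos had 16, 3, 8 and 13 UMIs in the IP and overlapped its input. Its IP was below the input in 3 of 4 lysates, and the log2 fold change of -1.09 (SE 0.41, adjusted p = 0.0398) rested on replicate 4, without which it was -0.48 (adjusted p = 0.305); without replicate 5 it was -0.96 (adjusted p = 0.202). The Fos call was also lost with TMM (adjusted p = 0.0740), with totals that excluded Gm26917 and Gm42418 (0.0653), with 10 UMIs required in 4 libraries (0.0663) and in DESeq2 with total UMIs (0.115) and median-of-ratios (0.137). Fosb had 8, 11, 8 and 9 UMIs and Egr1 2, 9, 10 and 5 UMIs in the IP. Their log2 fold changes of 0.28 (SE 0.45) and -0.49 (SE 0.50) were within the error at these counts.

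**Figure D3:**
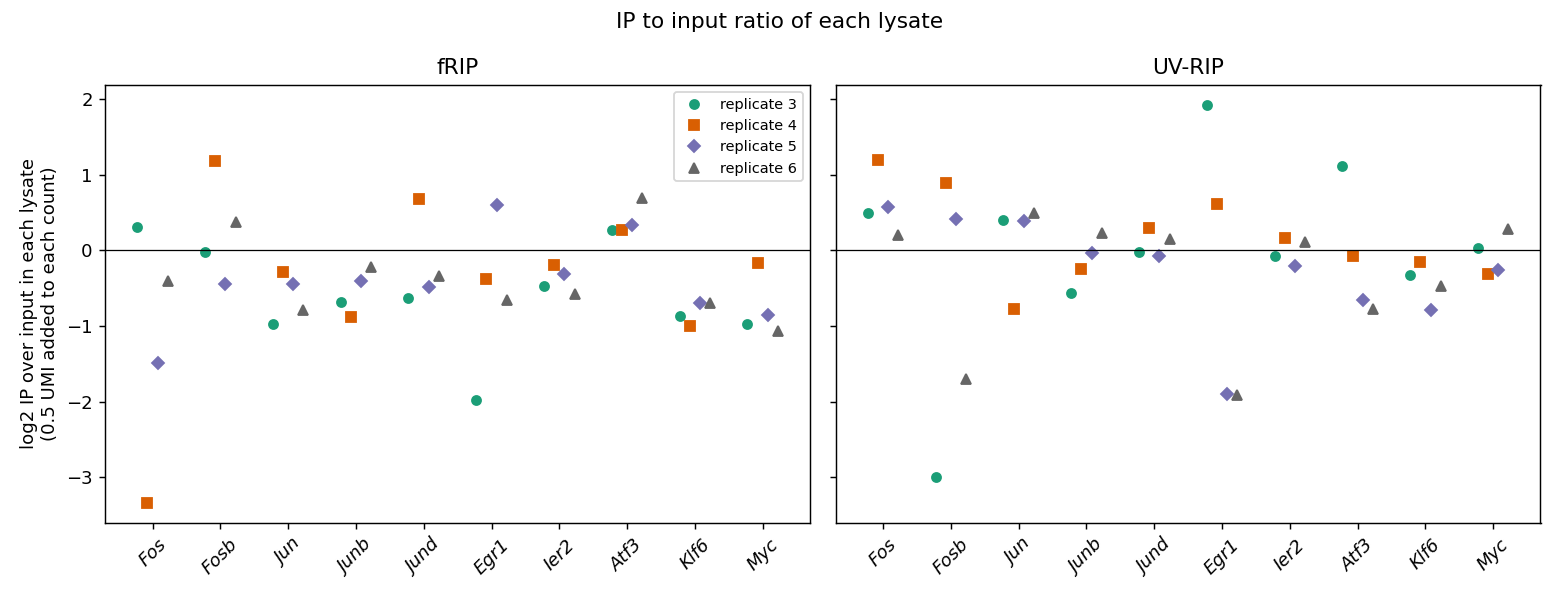
Log2 ratio of IP to input in each lysate (0.5 UMI added to each count), with 1 symbol per replicate, for fRIP on the left and UV-RIP on the right. In fRIP all 4 ratios are below 0 for Jun, Junb, Ier2, Klf6 and Myc and above 0 for Atf3, whereas in UV-RIP all 4 agree in sign only for Klf6, below 0, and Fos, above 0.

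In UV-RIP the calls were few. Klf6 was the 1 gene of 10 called lower, against 29.0% of all genes, and none was called higher, against 6.60%. With a fold above 1.5 none was called in either direction, against 5.53% of all genes lower and 0.680% higher. The median log2 fold change was -0.03 for the 10 genes and -0.17 for all genes, a shift that went with the larger share of Gm26917 in the IP libraries. With TMM scaling, which sets the median of all genes at 0.01, Jund (log2 0.27, adjusted p = 0.00390) and Ier2 (0.18, adjusted p = 0.0404) were called higher, and Klf6 was at -0.26 (adjusted p = 0.0137). At the same -0.26 under DESeq2 with median-of-ratios scaling Klf6 was not called (adjusted p = 0.185). When the totals excluded Gm26917 and the related Gm42418, Jund was called higher too (log2 0.24, adjusted p = 0.0112).

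Klf6 had 8.93, 9.90, 7.49 and 9.55 CPM in the UV-RIP IP, all below the inputs, and a log2 fold change of -0.44 (SE 0.09, adjusted p = 4.10e-06). Ier2, with 18.004, 18.9, 15.4 and 16.95 CPM in the IP, had a log2 fold change of 0.00 (SE 0.07, adjusted p = 0.992). Jund had 13.9, 14.6, 13.6 and 14.8 CPM and a log2 fold change of 0.09 (SE 0.08, adjusted p = 0.471). Both genes overlapped their inputs, and their small standard errors come with 149 or more UMIs in each UV-RIP library.

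Myc had 4.92, 4.07, 3.41 and 3.99 CPM in the UV-RIP IP, Jun 2.04, 1.02, 2.01 and 1.45, and Junb 2.39, 2.64, 2.37 and 2.72. Each overlapped its input, and the log2 fold changes were -0.06 (SE 0.13) for Myc, 0.17 (SE 0.22) for Jun and -0.15 (SE 0.16) for Junb. Atf3 had 18, 9, 18 and 13 UMIs in the IP and a log2 fold change of -0.22 (SE 0.28). Its groups overlapped, at 7 to 23 UMIs per library against 45 to 110 in fRIP.

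Fos had 10, 9, 6 and 6 UMIs in the UV-RIP IP and was above its input in 4 of 4 lysates. The log2 fold change of 0.68 (SE 0.48, adjusted p = 0.309) did not pass the test. Fosb had 0, 5, 2 and 2 UMIs and Egr1 6, 4, 1 and 0. A count of 0 in Fosb replicate 3 allows up to 0.211 CPM and that in Egr1 replicate 6 up to 0.174 CPM, limits of 3 counts that cover counting error only, and no IP effect on these 2 genes was detectable at this depth.

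The difference between the crosslinkers was then tested itself, as the fRIP enrichment minus the UV-RIP enrichment over all 16 libraries. It was called lower for 4 of the 10 genes, against 8.07% of all genes, and higher for none, against 18.6%. The median was -0.38 for the 10 genes and 0.15 for all genes. The 4 were Jun with a log2 difference of -0.77 (SE 0.28, adjusted p = 0.0435), Myc with -0.67 (SE 0.21, adjusted p = 0.0168), Ier2 with -0.39 (SE 0.12, adjusted p = 0.0145) and Klf6 with -0.38 (SE 0.14, adjusted p = 0.0428). Fos had the largest fitted difference, -1.77 (SE 0.67), and just missed the threshold (adjusted p = 0.0521). It passed with TMM (log2 -1.89, adjusted p = 0.0440), with totals that excluded Gm26917 and Gm42418 (-1.91, 0.0425) and with no count filter (-1.77, 0.0114), each of which called 5 of the 10 genes lower. In DESeq2 with total UMIs Jun (adjusted p = 0.145), Klf6 (0.109) and Myc (0.0685) were not called, and Ier2 was (0.0384). In DESeq2 with median-of-ratios Ier2 (0.00275), Klf6 (0.0265) and Myc (0.0236) were called and Jun was not (0.0799).

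Each of the 4 calls was lost without at least 1 replicate number, left out of both crosslinkers and so taking 2 of the 8 plates. Without replicate 3 of both crosslinkers all 4 were lost, Myc, Jun, Ier2 and Klf6 with adjusted p = 0.127, 0.270, 0.0695 and 0.210, while the log2 differences were -0.57, -0.57, -0.38 and -0.32. Without replicate 6 the same 4 genes had adjusted p = 0.162, 0.198, 0.170 and 0.0696. Without replicate 5 Jun (0.144) and Myc (0.0583) were lost, and without replicate 4 Klf6 was lost (0.254). Other genes entered the calls in turn: Fos without replicate 3 (log2 -2.38, adjusted p = 0.0349) or 6 (-2.14, adjusted p = 0.0431), Atf3 without replicate 3, as higher in fRIP (1.01, adjusted p = 0.0311), and Jund without replicate 4 (-0.49, adjusted p = 0.000171).

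Gene body length moved with these differences over the whole transcriptome. Of the 10 genes, 9 have a gene body under 10 kb, from 1522 bases in Ier2 to 8913 in Klf6, and Atf3 has 47744 bases, of which 4.51% are exonic. Jun, Jund and Ier2 have a single exon and no intron of their own. Among 2806 protein-coding genes under 10 kb whose mean count reached 10 UMIs, 54.9% were higher in the fRIP input than in the UV-RIP input, and the median log2 difference was 0.44. Among 10437 longer genes 24.0% were higher and the median was -0.01.

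Between the inputs most of the 10 genes stood above genes of their length. For 8 of the 10 genes the difference lay above the middle 50% of protein-coding genes in the same length class, and for Ier2 and Myc within it. Atf3 stood farthest out, at 1.87 against a median of -0.02 for the 2527 genes from 32000 to 64000 bases. In the class from 2000 to 4000 bases, 622 genes had a median of 0.58, against 1.81 for Fos and 1.48 for Jun. With the trend on length removed, the median of the 10 genes was 0.85.

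Short genes were often lower in the fRIP IP. Among the genes under 10 kb 63.0% were lower in the fRIP IP than in input and 5.38% higher, with a median log2 fold change of -0.50, close to the -0.51 of the 10 genes. Against its length class Klf6 was below the middle 50%, at -0.81 against a median of -0.26, and so were Fos and Myc. Jun, Junb and Egr1 were within it, and Ier2, Jund, Fosb and Atf3 above it. Ier2 illustrates this, since its -0.39 compares with a median of -0.85 over 189 genes from 1000 to 2000 bases, and with the trend on length removed its value was 0.015. In UV-RIP 44.3% of the genes under 10 kb were lower in the IP, with a median of -0.22. For the difference between the crosslinkers 33.2% of them were lower, with a median of -0.27.

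**Figure D4:**
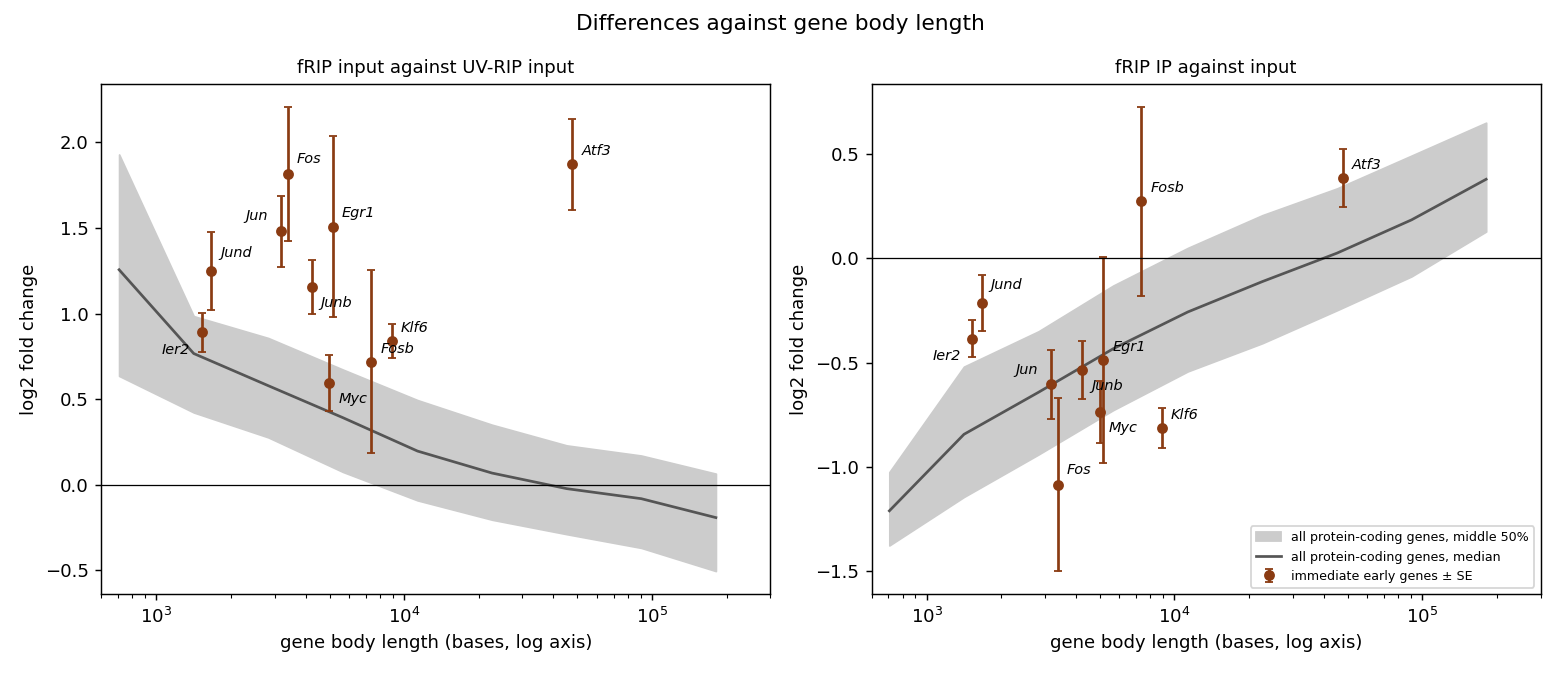
Log2 fold change against gene body length (log axis) for fRIP input against UV-RIP input and for fRIP IP against input, with the 10 genes as points ± SE and the median and middle 50% of protein-coding genes as a grey line and band. Between the inputs 8 of the 10 points lie above the band, Atf3 farthest from it, and in the fRIP IP 4 lie above, 3 within and 3 below.

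Some gene bodies overlap another gene, and the strand and overlap settings of the counting are not given in the sources used here. Reads on the shared bases may have been mixed with those of the partner or left out if strand was not used. Jun shares 689 bases (21.6% of its body) with the antisense gene Junos, which had 40 to 54 UMIs in the fRIP inputs and 102 to 125 in the fRIP IP. Junos was thus higher, and Jun lower, in the fRIP IP than in its input. Jund shares 919 bases (55.1%) with the antisense Gm11175, at 1 to 32 UMIs per library, and Junb shares 351 bases (8.29%) with Prdx2 on the opposite strand, at 421 or more UMIs per library. The values of these 3 genes are uncertain to that extent.

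A list of further primary response genes was read beside the 10, and genes named from this and the other lists have a mean of 100 or more UMIs. Of 44 genes tested of 48 listed, 36 (81.8%) were higher in the fRIP input and none lower, with a median log2 difference of 0.81, against 20.2% of all genes and 54.9% of short ones. Btg2, an antiproliferative factor, rose by 1.54 (SE 0.10, adjusted p = 2.53e-08) and Cited2, a CBP/p300-binding regulator, by 1.39 (SE 0.10, adjusted p = 9.27e-08). In the fRIP IP 28 of the 44 (63.6%) were lower and 3 higher, with a median of -0.45, against 21.9% of all genes and 63.0% of short ones lower. Cited2 was at -1.04 and Tob1, a relative of Btg2, at -0.93. In the UV-RIP IP 12 (27.3%) were lower and 3 (6.82%) higher, against 29.0% and 6.60% of all genes and 44.3% and 2.57% of short ones, with a median of -0.14, Btg2 at -0.42 and Tob1 at -0.41. Nr4a1, an orphan nuclear receptor induced like Fos, was called higher in both IPs, by 0.30 (SE 0.09, adjusted p = 0.0118) in fRIP and 0.28 (SE 0.08, adjusted p = 0.00362) in UV-RIP. The difference between crosslinkers was lower for 18 of the 44 (40.9%, against 8.07% of all genes and 33.2% of short ones), Cited2 at -0.74 and Ccn2 at -0.68 among them, and higher for 1.

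The dimer partners of AP-1 were read the same way. Between the inputs 3 of 19 tested (15.8%) were higher and 2 (10.5%) lower, against 20.2% and 17% of all genes, and the median was 0.03 for both. Atf4, the factor of the integrated stress response, rose by 1.24 (SE 0.10, adjusted p = 1.43e-07), and Crem, a cyclic AMP responsive factor, fell by 0.60 (SE 0.08, adjusted p = 1.86e-05). In the fRIP IP 6 (31.6%) were higher and 3 (15.8%) lower, against 17.6% and 21.9% of all genes. Jdp2, a repressor that pairs with Jun proteins, rose by 0.96 (SE 0.11, adjusted p = 8.74e-08) and Mafk, a small Maf protein, by 0.67 (SE 0.11, adjusted p = 2.92e-05), whereas Atf4 fell by 0.71 (SE 0.08, adjusted p = 1.60e-07). In the UV-RIP IP 2 were higher, Mafk among them at 0.42, and 7 lower, including Atf2 at -0.64, that is 10.5% and 36.8% against 6.60% and 29.0% of all genes. The difference between crosslinkers was higher for 7 (36.8%) and lower for 1 (5.26%), against 18.6% and 8.07%. Many genes of this list and of those below are 10 kb or longer. Among protein-coding genes of that length with a mean of 10 or more UMIs, the difference was higher for 34.1% and lower for 8.11%. Of those genes 30.5% were higher and 26.7% lower in the fRIP IP, and 12.6% and 45.1% in the UV-RIP IP. Between the inputs 24.0% were higher and 25.2% lower.

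In the Myc network, Max is the shared partner and Mxi1 and Mnt compete with Myc for it. Of 11 genes 6 (54.5%) were higher in the fRIP input and none lower, against 20.2% and 17% of all genes, with Mycl at 1.08 (SE 0.14, adjusted p = 1.70e-05) and Mlx at 0.83. In the fRIP IP 4 (36.4%) were higher and 3 (27.3%) lower, against 17.6% and 21.9% of all genes, with Mxi1 at 0.66 and Mnt at 0.50 against Mlx at -0.79 and Mycn, the Myc relative abundant in stem cells, at -0.49. In the UV-RIP IP Mnt was higher, at 0.34, and 4 (36.4%) were lower, Mlx and Max among them, against 6.60% of all genes higher and 29.0% lower. The difference between crosslinkers was higher for 3 (27.3%), including Mxi1 at 0.68, and lower for 3, including Mycn at -0.33, against 18.6% and 8.07% of all genes. Among protein-coding genes of 10 kb or more it was higher for 34.1%, and 30.5% were higher in the fRIP IP.

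The kinases and factors upstream of the response had a median of 0.08 between the inputs, with 7 of 26 (26.9%) higher and 1 (3.85%) lower, against 20.2% and 17% of all genes. Srf rose by 0.77 (SE 0.15, adjusted p = 0.000589), while Rps6ka5, a kinase that phosphorylates histones and CREB at these genes, fell by 0.49 (SE 0.09, adjusted p = 0.000531). In the fRIP IP 9 (34.6%) were higher and 6 (23.1%) lower, against 17.6% and 21.9% of all genes, with Rps6ka2 at 1.10 (SE 0.08, adjusted p = 2.15e-10) and Elk3 at 0.80 against Nras at -0.59. In the UV-RIP IP 5 (19.2%) were higher and 15 (57.7%) lower, the kinase Mapk8 at -0.44 among them, against 6.60% and 29.0% of all genes. The difference between crosslinkers was higher for 13 and lower for 1, Nras, against 18.6% and 8.07% of all genes. Among protein-coding genes of 10 kb or more it was higher for 34.1% and lower for 8.11%. Of those genes 30.5% were higher in the fRIP IP, and in the UV-RIP IP 12.6% were higher and 45.1% lower.

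Of the proteins that bind AU-rich elements, 8 of 9 were called lower in the fRIP IP and none higher, against 21.9% of all genes lower, with Hnrnpd at -0.73 and Zfp36l1, a decay factor, at -0.69. In the UV-RIP IP 6 of 9 were called lower and none higher, against 29.0% of all genes lower, among them Tial1 at -0.75 and Tia1 at -0.67. Khsrp and Zfp36l2 had 0.00 there, and Zfp36l2 was not called in the fRIP IP either (adjusted p = 0.750). Between the inputs 6 (66.7%) were higher, Zfp36l1 at 1.06 and Khsrp at 0.89 among them, and 1 (11.1%) lower, Tial1 at -0.19, against 20.2% and 17% of all genes. The difference between crosslinkers was higher for 1 of the 9, Celf1 (0.28), and lower for 1, Khsrp (-0.26), against 18.6% and 8.07% of all genes.

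The genes with the pattern over the 16 libraries most like that of Fos were Npm3, Hist2h3b and Gm10031, at root mean square distances of 0.58, 0.62 and 0.63 in centred log2 CPM, against a median of 0.88 over the 10208 genes whose mean count reached 100 UMIs. For Ier2, the member with the most UMIs, the nearest were Arhgdia, Rnf187 and Lrrc47, at 0.09, 0.10 and 0.10 against a median of 0.43. Fos had a mean of 9.38 UMIs per library and Ier2 of 357, and all of these genes share libraries and depth.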

How the data were processed

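The authors mapped the paired reads of ribosome-depleted, UMI-tagged libraries with STAR to mm10, kept unique alignments and deposited raw UMI counts for whole genes of GENCODE vM16 (exons and introns). The paper names featureCounts as the tool that counted UMIs on gene bodies. Versions and the settings for strand and overlapping genes are not given in the sources used here. Each of the 16 count columns belongs to 1 library. The members and gene lists were chosen with earlier results of these data known. Named genes are all members and, per list and comparison, the 2 largest called changes in each direction with a mean of 100 or more UMIs, and 1 gene that this rule names is not reported here. Gene names and positions come from GENCODE vM21 on GRCm38, where 50604 of 53379 identifiers matched with their version and 2670 without it.

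The test was run in edgeR 4.0.16 under R 4.3.3 (quasi-likelihood test, total UMIs as library size, Benjamini-Hochberg adjustment) over the 22936 genes that reached 3 UMIs in any of the 16 libraries. IP against input had the replicate number as a block, the difference between crosslinkers the plate, and the inputs none, as the 8 plates were distinct. Same-numbered IP and input share a lysate by the study's methods, and their deviations from the group means correlated at 0.114 to 0.595 in fRIP and 0.0279 to 0.435 in UV-RIP across genes. Replicates differed by more than sampling noise (lowest chi-square per degree of freedom 1.72). On simulated data with 200 changed genes the test recovered 100% between IP and input in each crosslinker (22794 genes for fRIP, 22708 for UV-RIP), 98% for the difference between crosslinkers (22701 genes) and 100% between inputs (22862 genes), while unchanged genes made up 7.83%, 2.91%, 3.92% and 1.96% of the calls in fRIP, UV-RIP, the difference and the inputs. Alternatives were TMM, totals without Gm26917 and Gm42418, DESeq2 1.42.0 with 2 scalings, other count filters, removal of a length trend, a fold threshold of 1.5, other blocks and each replicate left out. P-values measure the spread between plates of one cell line. Intervals and limits cover counting error only.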

Additional observations from a re-analysis of the deposited data

Results flagged for a closer look

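In 4 genes the fRIP enrichment was below the UV-RIP enrichment by the test of the difference itself, with log2 differences of -0.77 for Jun, -0.39 for Ier2, -0.38 for Klf6 and -0.67 for Myc. Each of these lost its call when at least 1 replicate number was left out of both crosslinkers, and all but Ier2 also lost it in DESeq2 with total UMIs, whereas with median-of-ratios 1, Jun, did (adjusted p = 0.0799).

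Of 64 sets of 4 values examined for 1 value far from the other 3, 2 had one, fewer than the 1 in 20 that chance gives. The log2 ratio of IP to input of Jun in UV-RIP was -0.78 in replicate 4 and 0.39 to 0.49 in the others, at 15 UMIs in that IP and 22 in its input. That of Atf3 in fRIP was 0.69 in replicate 6 and 0.27 to 0.33 in the others.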

How the results depend on the processing

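Of 482 single-gene values under the alternatives, 408 kept direction and call or moved less than the spread, 44 lost a call, 11 gained one, 18 moved when the length trend was removed and 1, Ier2 in the fRIP IP at 0.015 with that trend removed, changed sign. A change of sign was counted only for called values; 17 of 203 values called under neither setting had the other sign. In a further 20, DESeq2 gave no adjusted p. The causes were not tested.

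The count of genes called higher in the fRIP IP was 0 with DESeq2 under both scalings and with a fold above 1.5, and 0 to 1 with a replicate left out. The count of genes lower was 3 with median-of-ratios DESeq2, where Fos, Jun and Junb had adjusted p = 0.137, 0.0736 and 0.0561, and 4 with DESeq2 on total UMIs, where Fos (0.115) and Jun (0.0542) were lost, and with the length trend removed the median was -0.25. Fos also lost its call in the fRIP IP with TMM (adjusted p = 0.0740), with totals without Gm26917 and Gm42418 (0.0653) and with 10 UMIs required in 4 libraries (0.0663). In the UV-RIP IP 2 genes were higher with TMM and 1 without Gm26917 and Gm42418, the median was 0.15, 0.12 and, with the length trend removed, 0.19, and the count lower was 0 with median-of-ratios DESeq2 and with a fold above 1.5. For the difference between crosslinkers the count lower was 5, with Fos, under TMM, without Gm26917 and Gm42418 and with no count filter, 3 with median-of-ratios DESeq2, 1 with DESeq2 on total UMIs and 2 with a fold above 1.5, and with a replicate left out it was 1 to 4 lower and 0 to 1 higher. Without the replicate block that count was 0, with adjusted p from 0.0644 for Klf6 to 0.123 for Jun, and Fos lost its call in fRIP (0.0538). Between the inputs, where the numbers pair nothing (same-numbered inputs correlated at -0.267 to -0.0651), a replicate block left 8 genes higher, without Egr1 (adjusted p = 0.0660). The median between inputs was 0.85 with the length trend removed. The block changed no other call of the 10 genes. For Fos, Fosb and Egr1, with means under 10 UMIs per library, depth limits every comparison.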
